A study of Rattus norvegicus with 22 samples.

Results

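The genes described are 10 that encode enzymes of the lysosome or a protein processed there: the cathepsins Ctsb, Ctsc, Ctsd, Ctsh, Ctss and Ctsz, the hydrolases Hexa and Lyz2, the protease legumain (Lgmn) and progranulin (Grn). They were taken by name from the RNA-seq count table, in which all 10 were present among 17172 gene names, and all 10 passed the filter on low counts that left 12875 genes for testing. The data came from the ipsilateral (right) hippocampus of 14 adult male Sprague-Dawley rats, 1 rat per library. Rats received a moderate lateral fluid percussion, a pulse of fluid pressure delivered through a craniectomy over the right hemisphere that models traumatic brain injury (TBI), or a sham procedure with the same anesthesia and surgery but no pulse, so that the sham rats also carried the craniectomy. The groups were sham day 1 (n = 2), TBI day 1 (n = 4), sham day 14 (n = 4) and TBI day 14 (n = 4), where the day counts from the procedure to tissue collection. Levels are given in CPM, the reads of a gene scaled to the size of its library after TMM factors. CPM is not corrected for gene length, so levels were compared between groups for 1 gene and not between genes.

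Lysosomes degrade material delivered by endocytosis, phagocytosis and autophagy. Cathepsins are their proteases, most of which cut at a catalytic cysteine and work best at acid pH, and they are made as inactive precursors that are processed inside the organelle. In the brain, microglia are rich in lysosomal enzymes and engulf debris, synapses and dying cells after injury, while neurons depend on the same enzymes to clear proteins and lipids. Loss of several of these enzymes causes lysosomal storage disease or neurodegeneration, including Hexa in Tay-Sachs disease, Ctsd in a ceroid lipofuscinosis and Grn in frontotemporal dementia.

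The libraries held 15065540 to 23743703 counted reads. Markers of the choroid plexus, a tissue that adjoins the hippocampus, stood apart in 3 libraries: their summed level was 11270 CPM in sham day 1 replicate 1, 2098 CPM in TBI day 14 replicate 2 and 8794 CPM in TBI day 14 replicate 3, and between 124.1 and 247.2 CPM in the other 11. Neuron markers were present in every library, at a summed 4512 to 12600 CPM. Sham day 1 had 2 rats, and its replicate 1 lay above its replicate 2 for 10 of the 10 genes, so values at day 1 are given with each of these rats left out where that changed a call. Because the tissue was sequenced in bulk, a change in the number of cells of a type and a change in RNA per cell cannot be told apart.

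Promoter sequences were found for 8 of the 10 genes in the RefSeq table of build GRCr8 (250 bases before the transcription start and 50 after it), all but Ctsb and Hexa. They were searched on both strands for 3 sets of letters: CACGTG, the E-box bound by the MiT/TFE factors that activate lysosomal genes, GAGGAAGT, an ETS element of the kind bound by the myeloid factor PU.1, and TGACTCA, the AP-1 element. CACGTG was found in 1 of the 8 promoters and in 6.42% of all 33469 promoters of this length, GAGGAAGT in 2 and in 2.42%, and TGACTCA in 0 and in 4.63%. For the 8 genes only the first listed promoter was searched, while the percentages count every promoter listed. The 3 promoters with a match are printed below 5′ to 3′ on the strand of the gene, with the matching letters in capitals. Ctsd and Ctss passed the test of injury against sham at day 14 and not at day 1, and Ctsc passed at both days. Ctsh also passed at day 14 and not at day 1, and its promoter held none of the 3 sets of letters. The day 1 outcomes of Ctsd, Ctsh and Ctsc changed with the sham day 1 rat left out. None of these genes passed the edgeR test of a different injury effect at the 2 days (adjusted p = 0.121 for Ctsd, 0.0702 for Ctss, 0.0602 for Ctsh and 0.928 for Ctsc). Ctsd (chr1:206968772-206969071, minus strand) held CACGTG at 2 places, beginning 157 and 10 bases before the start. Ctss (chr2:185775146-185775445, plus strand) and Ctsc (chr1:151440799-151441098, plus strand) each held GAGGAAGT on the opposite strand, printed here as ACTTCCTC, beginning 17 and 248 bases before the start. A match describes the letters and does not show that a factor binds there.
Ctsd: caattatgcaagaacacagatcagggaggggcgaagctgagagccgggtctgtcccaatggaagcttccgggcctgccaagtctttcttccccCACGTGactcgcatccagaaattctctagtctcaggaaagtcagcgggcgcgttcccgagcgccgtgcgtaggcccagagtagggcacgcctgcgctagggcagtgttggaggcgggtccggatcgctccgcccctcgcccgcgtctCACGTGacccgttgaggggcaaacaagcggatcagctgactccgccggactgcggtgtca
Ctss: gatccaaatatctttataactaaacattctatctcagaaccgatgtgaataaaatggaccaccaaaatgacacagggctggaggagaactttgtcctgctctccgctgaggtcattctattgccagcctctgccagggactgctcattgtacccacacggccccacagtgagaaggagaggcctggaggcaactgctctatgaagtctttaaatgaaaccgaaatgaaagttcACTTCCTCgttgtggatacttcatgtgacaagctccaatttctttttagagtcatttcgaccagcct
Ctsc: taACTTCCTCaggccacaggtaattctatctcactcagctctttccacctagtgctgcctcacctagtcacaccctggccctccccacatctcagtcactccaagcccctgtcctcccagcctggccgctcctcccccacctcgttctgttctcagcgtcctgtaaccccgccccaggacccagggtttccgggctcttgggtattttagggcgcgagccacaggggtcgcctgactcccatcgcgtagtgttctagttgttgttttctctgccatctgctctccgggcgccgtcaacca

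At 1 day after injury, 6 of the 10 genes were upregulated relative to sham day 1 and 4 did not pass the test. The upregulated genes were Lyz2, Ctsz, Ctsc, Lgmn, Grn and Ctsb, with changes from 2.08-fold to 9.14-fold. The other 4, Ctsd, Ctsh, Ctss and Hexa, had log2 fold changes between 0.01 and 0.45. Of all 12875 genes tested, 11.2% were higher at day 1 by the same rule (edgeR quasi-likelihood test, Benjamini-Hochberg adjusted p under 0.05). The median log2 fold change was 1.11 over the 10 genes and -0.02 over all genes tested. The count was 4 without sham day 1 replicate 2, where Ctsc and Grn did not pass, and 8 without replicate 1, where Ctsd and Ctsh passed as well. None of the 10 fell, and the count that fell was also 0 at an unadjusted p under 0.05, by limma-voom and by DESeq2.

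At 14 days, 9 of the 10 were upregulated relative to sham day 14, where 4.07% of all genes tested were higher. Hexa was the exception. The fold changes of the 9 ran from 1.64 for Ctsb to 4.79 for Ctsz, and the median log2 fold change over the 10 genes was 1.35, against -0.03 over all genes tested. All 4 TBI rats lay above all 4 sham rats for 10 of the 10 genes at this day, an arrangement seen in 9.13% of all genes tested. At day 1 the same held for 6 of the 10, those that passed the test, and for 16.7% of all genes. No gene fell at day 14 either, and again the count was 0 at an unadjusted p under 0.05 and by limma-voom and DESeq2.

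**Figure D1:**
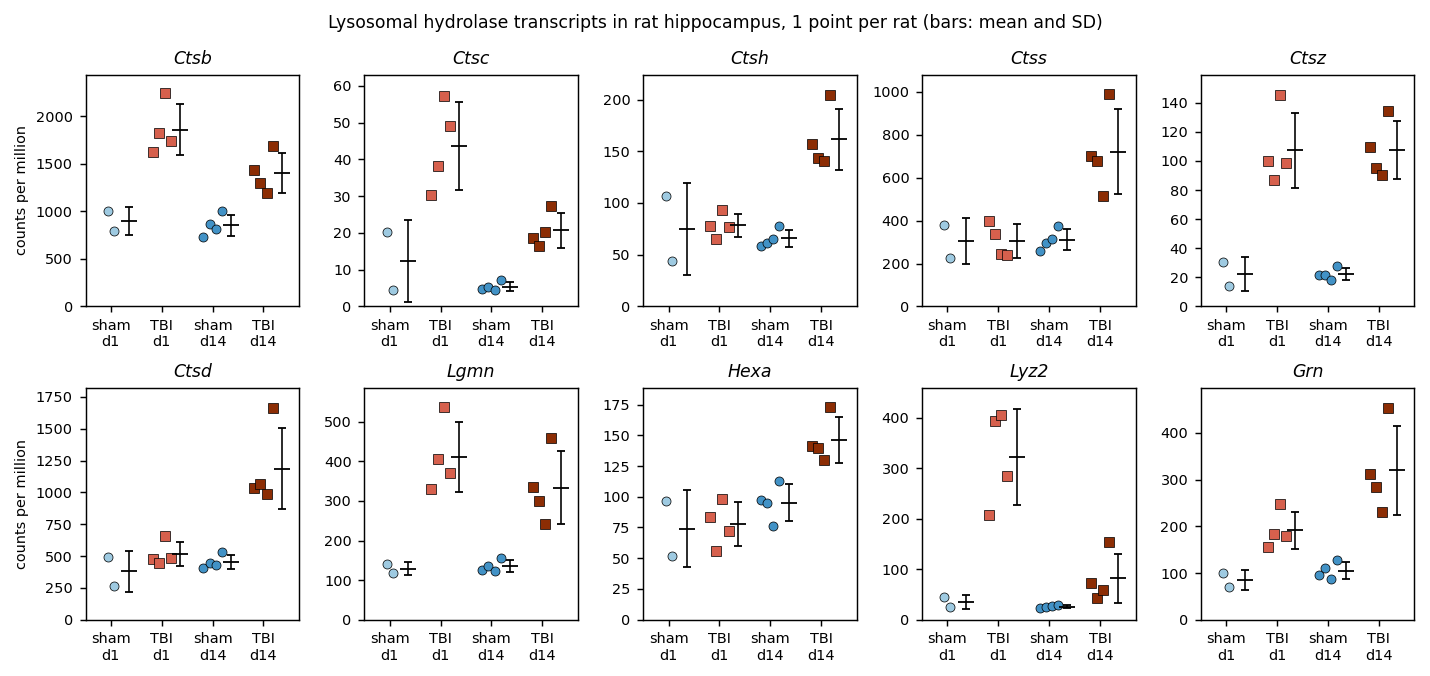
CPM (y axis, from 0) of each of the 10 genes in every rat, by group (x axis: sham and TBI at day 1, d1, and day 14, d14). Each point is 1 rat, and the bar beside each group is the mean with its SD. Ctsz is at the same height in both TBI groups, Lyz2 is highest at TBI day 1, and Ctsd, Ctsh and Ctss overlap with sham at day 1 and stand above it at day 14.

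Cathepsin Z (Ctsz) is a cysteine carboxypeptidase that removes residues from the ends of proteins. It stood at 30.5 and 14.1 CPM in the sham day 1 rats and at 99.7, 86.6, 145.1 and 98.6 CPM in the TBI day 1 rats. At day 14 it stood at 21.9, 21.3, 18.4 and 28.0 CPM in sham and at 109.9, 95.1, 90.0 and 134.6 CPM in TBI. The TBI rats of both days lay in 1 range, well above all 6 sham rats. On the log2 scale TBI exceeded sham by 2.27 ± 0.31 (SE) on day 1 (adjusted p = 0.000192) and by 2.26 ± 0.24 on day 14 (adjusted p = 3.74e-05). Between TBI day 14 and TBI day 1 the log2 difference was -0.0012 ± 0.22 (adjusted p = 0.997).

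Cathepsin C (Ctsc), also called dipeptidyl peptidase I, activates the serine proteases of neutrophils and other granule-bearing cells. The sham day 1 rats differed most for this gene, at 20.3 and 4.38 CPM, and the TBI day 1 rats had 30.2, 38.2, 57.3 and 49.2 CPM. At day 14 the sham rats had 4.65, 5.23, 4.33 and 7.13 CPM and the TBI rats 18.7, 16.5, 20.2 and 27.4 CPM. Every TBI rat lay above the sham rats of its day, and the TBI day 14 rats lay below the TBI day 1 rats. TBI over sham came to a log2 value of 1.83 ± 0.46 on day 1 (adjusted p = 0.0124), followed by 1.95 ± 0.37 on day 14 (adjusted p = 0.00424). The day 1 value rested on the sham rats: it was 1.11 without sham day 1 replicate 2, where the call was lost (adjusted p = 0.09), 3.32 without replicate 1, and 1.84 with only the 6 day 1 libraries in the fit (adjusted p = 0.0998).

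Cathepsin B (Ctsb), a cysteine protease with both endopeptidase and carboxypeptidase activity, had 999.8 and 793.4 CPM in sham day 1 and 1628, 1826, 2247 and 1741 CPM in TBI day 1. Sham day 14 rats had 725.5, 865.2, 819.1 and 999.3 CPM and TBI day 14 rats 1434, 1294, 1193 and 1686 CPM. The TBI and sham ranges did not overlap at either day. Fitted log2 differences from sham were 1.05 ± 0.19 for day 1 (adjusted p = 0.00196) and 0.72 ± 0.15 for day 14 (adjusted p = 0.00998).

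Legumain (Lgmn) cuts after asparagine and converts the single-chain forms of several cathepsins to their mature forms. It had 141.1 and 117.1 CPM in sham day 1 and 329.5, 406.5, 536.6 and 371.6 CPM in TBI day 1. The day 14 levels were 125.6, 135.8, 123.8 and 155.5 CPM in sham and 334.9, 298.7, 241.0 and 458.3 CPM in TBI. All 8 TBI rats were above all 6 sham rats. Injury against sham gave log2 values of 1.67 ± 0.25 on the first day (adjusted p = 0.000393) and 1.30 ± 0.19 on day 14 (adjusted p = 0.000594).

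Progranulin (Grn), a secreted glycoprotein that is taken to the lysosome and split there into granulins, had 100.8 and 69.7 CPM in sham day 1 and 155.3, 184.4, 248.6 and 178.6 CPM in TBI day 1. By day 14 the sham rats had 95.3, 110.1, 86.3 and 128.4 CPM, and the TBI rats 312.8, 283.4, 230.4 and 453.6 CPM. The injured rats stood above sham at both days. On the log2 scale TBI exceeded sham by 1.17 ± 0.27 on day 1 (adjusted p = 0.00816) and by 1.61 ± 0.21 on day 14 (adjusted p = 0.000266). Without sham day 1 replicate 2 the day 1 value was 0.93 and did not pass the test (adjusted p = 0.13).

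Lysozyme 2 (Lyz2), which cuts the bacterial cell wall and is a product of macrophages, monocytes and neutrophils, had the largest day 1 change of the 10 genes. It had 45.3 and 25.4 CPM in sham day 1 and 206.6, 394.3, 406.1 and 284.8 CPM in TBI day 1. Sham day 14 rats had 23.9, 24.6, 26.5 and 28.9 CPM and TBI day 14 rats 72.8, 43.9, 58.7 and 153.2 CPM. The day 14 TBI rats lay above their sham rats and below every TBI day 1 rat. TBI over sham came to a log2 value of 3.19 ± 0.47 on day 1 (adjusted p = 0.000344), followed by 1.66 ± 0.33 on day 14 (adjusted p = 0.00712). A second lysozyme gene in the table, Lyc2, had 0 to 16 reads per library against 365 to 9713 for Lyz2. How the counting treated reads that match both genes is not given in the sources used here.

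Cathepsin D (Ctsd), the main aspartic protease of the lysosome, had 492.4 and 266.5 CPM in sham day 1 and 480.4, 446.3, 655.0 and 485.9 CPM in TBI day 1, ranges that overlapped. The day 14 levels were 405.1, 442.2, 425.8 and 529.5 CPM in sham and 1033, 1063, 989.9 and 1662 CPM in TBI, with no overlap. Fitted log2 differences from sham were 0.45 ± 0.26 for day 1 (adjusted p = 0.242) and 1.40 ± 0.21 for day 14 (adjusted p = 0.00078). Without sham day 1 replicate 1 the day 1 value was 0.95 and passed the test (adjusted p = 0.0365).

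Cathepsin H (Ctsh), an aminopeptidase, had 106.4 and 43.6 CPM in sham day 1 and 77.4, 65.2, 93.2 and 77.2 CPM in TBI day 1, so that the 4 injured rats lay between the 2 sham rats. By day 14 the sham rats had 58.8, 61.0, 65.0 and 77.8 CPM, and the TBI rats 157.3, 143.0, 140.9 and 204.8 CPM. Injury against sham gave log2 values of 0.06 ± 0.27 on the first day (adjusted p = 0.894) and 1.30 ± 0.22 on day 14 (adjusted p = 0.00206). Its day 1 value turned on which sham rat was kept, at 0.84 without replicate 1 (adjusted p = 0.0278) and -0.44 without replicate 2 (adjusted p = 0.29).

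Cathepsin S (Ctss), which stays active at neutral pH and trims the invariant chain of MHC class II, had 378.8 and 227.2 CPM in sham day 1 and 399.1, 337.0, 243.7 and 238.1 CPM in TBI day 1. Sham day 14 rats had 256.0, 296.6, 316.6 and 373.2 CPM and TBI day 14 rats 703.2, 677.6, 517.0 and 990.2 CPM. The groups overlapped at day 1 and were apart at day 14. On the log2 scale TBI exceeded sham by 0.01 ± 0.27 on day 1 (adjusted p = 0.988) and by 1.22 ± 0.23 on day 14 (adjusted p = 0.00424).

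Hexosaminidase A (Hexa), the alpha subunit of the enzyme that degrades GM2 ganglioside, had 96.4 and 51.7 CPM in sham day 1 and 83.8, 56.1, 98.2 and 72.3 CPM in TBI day 1. The day 14 levels were 97.4, 94.6, 75.8 and 113.1 CPM in sham and 141.2, 139.7, 130.3 and 173.1 CPM in TBI. The TBI day 14 rats lay above their sham rats, and the difference was the smallest of the 10 at that day. TBI over sham came to a log2 value of 0.07 ± 0.25 on day 1 (adjusted p = 0.872), followed by 0.62 ± 0.20 on day 14 (adjusted p = 0.127). With only the 8 day 14 libraries in the fit the day 14 value was 0.65 and passed the test (adjusted p = 0.00692). It also passed at 0.62 when either sham day 1 rat was left out of the fit over all groups (adjusted p = 0.0478 without replicate 1 and 0.0474 without replicate 2).

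**Figure D2:**
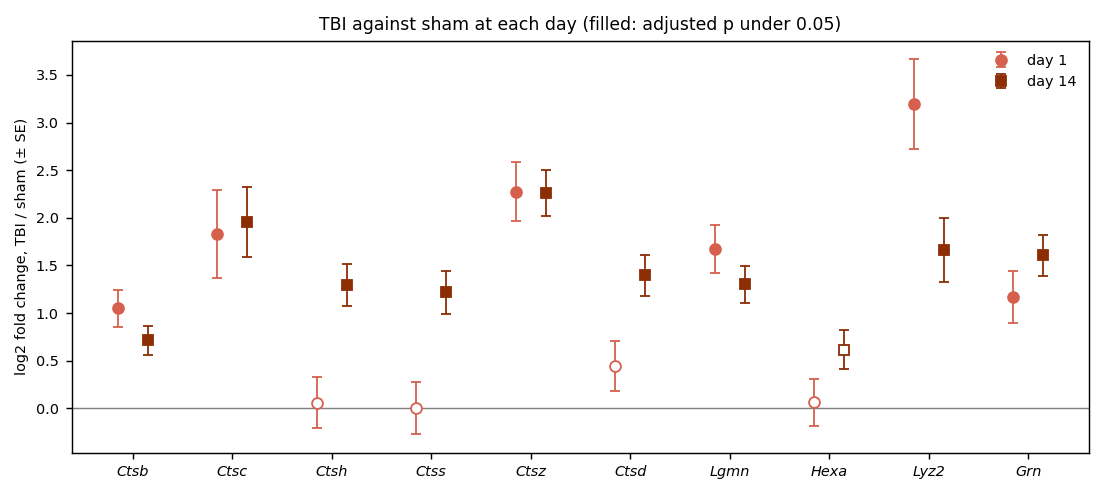
Log2 fold change of TBI over sham with its SE (y axis) for each of the 10 genes (x axis), with circles for day 1 and squares for day 14. Filled symbols passed the test at an adjusted p under 0.05. At day 1 the values of Ctsh, Ctss, Ctsd and Hexa are open, between 0.01 and 0.45, and at day 14 only Hexa is open.

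Whether the injury effect itself differed between the 2 days was tested as the day 14 effect minus the day 1 effect. None of the 10 genes passed this test in edgeR, where 1.44% of all genes had a higher and 2.24% a lower effect at day 14. At an unadjusted p under 0.05 there were 4 genes, limma-voom called 0 and DESeq2 called 3 (Ctsh and Ctss higher, Lyz2 lower). The log2 difference was 1.24 ± 0.34 for Ctsh (adjusted p = 0.0602), 1.21 ± 0.35 for Ctss (adjusted p = 0.0702), 0.95 ± 0.33 for Ctsd (adjusted p = 0.121) and -1.53 ± 0.53 for Lyz2 (adjusted p = 0.123). Without sham day 1 replicate 2, the values of Ctsh (1.74), Ctss (1.53) and Ctsd (1.33) passed the test. Ctss (1.37) also passed without TBI day 1 replicate 1, and Lyz2 (-2.02) without TBI day 14 replicate 4. A gene that passed at day 14 and not at day 1 was therefore not shown by the main test to respond differently on the 2 days. The smallest difference was that of Ctsz, at -0.01 ± 0.36 (adjusted p = 0.989).

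The 2 injured groups were compared directly, a difference in which the sham rats enter only through the shared estimate of the spread. From TBI day 1 to TBI day 14, 5 of the 10 genes were higher and 3 lower, where 17.6% of all genes tested were higher and 21.9% lower. Ctss rose by a log2 difference of 1.25 ± 0.23 (adjusted p = 0.000687), Ctsd by 1.20 ± 0.21 (adjusted p = 0.000524), Ctsh by 1.05 ± 0.22 (adjusted p = 0.00192), Hexa by 0.91 ± 0.20 (adjusted p = 0.00264) and Grn by 0.74 ± 0.21 (adjusted p = 0.0122). Lyz2 fell by 1.97 (SE 0.33, adjusted p = 0.000382), Ctsc fell by 1.08 (SE 0.34, adjusted p = 0.0218) and Ctsb fell by 0.41 (SE 0.15, adjusted p = 0.0436). Lgmn, at -0.30 ± 0.19 (adjusted p = 0.216), and Ctsz did not pass. Several of these calls were narrow. Ctsb did not pass in 6 of the 8 fits that left out 1 injured rat (-0.51 to -0.31 over the 8). Ctsc did not pass without TBI day 1 replicate 3 or without TBI day 14 replicate 1 or 2 (-1.24 to -0.92). Without TBI day 14 replicate 4, Grn was at 0.52 and did not pass (adjusted p = 0.0503), and Lgmn was at -0.50 and passed (adjusted p = 0.0432).

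**Figure D3:**
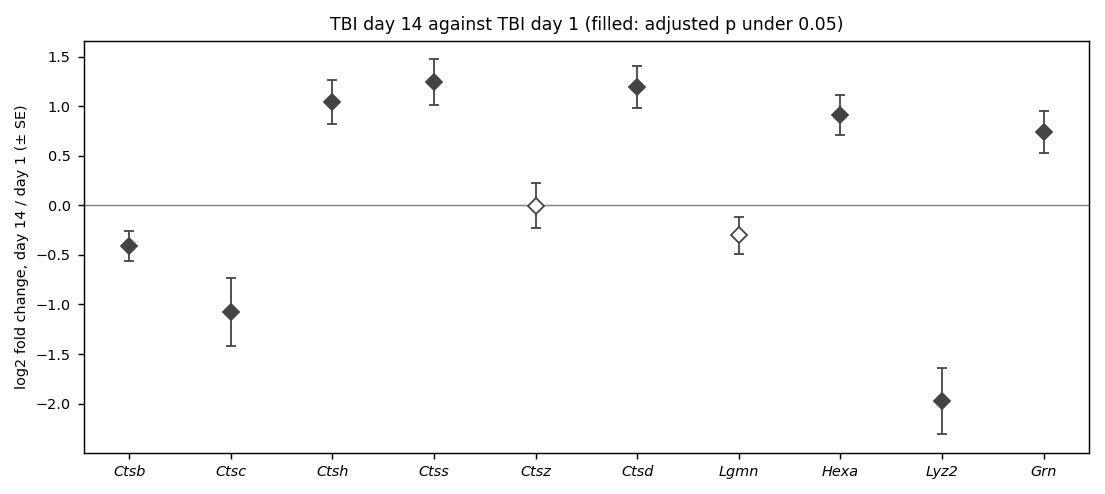
Log2 fold change of TBI day 14 over TBI day 1 with its SE (y axis) for each of the 10 genes (x axis), where filled symbols passed the test at an adjusted p under 0.05. Ctss, Ctsd, Ctsh, Hexa and Grn lie above 0, Lyz2, Ctsc and Ctsb below it, and Ctsz at 0.

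The sham groups served as a check on the baselines. Between sham day 1 and sham day 14, 0 of the 10 genes passed in edgeR, where 11.3% of all genes tested were higher and 7.88% lower at sham day 1. The count was 1 at an unadjusted p under 0.05, 0 by limma-voom and 1 by DESeq2, and that gene was Ctsc. The sham ranges of the 2 days overlapped for all 10 genes. Over all genes tested, the sham day 1 rats lay above every sham day 14 rat in 21.3% and below every one in 20.1%. With 2 rats in sham day 1, an overlap does not show that the baselines match. Against sham day 14, the baseline that the study used for its trajectories, the TBI day 1 rats were higher for 6 genes and lower for 0, by edgeR, limma-voom and DESeq2 and at an unadjusted p under 0.05 alike. In that comparison 25% of all genes tested were higher. The 6 were Lyz2, Ctsc, Ctsz, Lgmn, Ctsb and Grn, the genes that also passed against sham day 1, and leaving out any 1 rat left the count at 6. This comparison shares its sham rats with the day 14 comparison.

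Ordering the group levels by the calls of the main fit gave 4 arrangements. Some of these calls were narrow. From TBI day 1 to TBI day 14, Ctsb was at -0.41 ± 0.15 (edgeR adjusted p = 0.0436) and Lgmn at -0.30 ± 0.19 (adjusted p = 0.216), so the threshold alone sets them apart. Leaving out 1 rat could change the calls of Ctsb, Ctsc, Grn and Lgmn. For Ctsz and Lgmn the sham groups came first and the 2 TBI groups stood above them without a called difference between these. For Lyz2, Ctsc and Ctsb the order rose from the sham groups to TBI day 14 and then TBI day 1, with the higher sham day 1 rat of Ctsc (20.3 CPM) inside the TBI day 14 range. For Grn it rose from sham to TBI day 1 and then TBI day 14. For Ctsd, Ctsh, Ctss and Hexa, the sham groups and TBI day 1 did not differ beyond their spread and TBI day 14 was the highest group, although for Hexa its difference from sham day 14 did not pass. TBI day 14 was not tested against sham day 1.

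The gene outside the 10 whose pattern was nearest to each of them was taken as the tested gene, not among the 10 and with a mean log2 CPM over 1, with the smallest root mean square difference in log2 CPM over the 14 libraries, each gene centred on its own mean, among 11165 candidates. As a description, the nearest such gene to Ctsd was Csf1r, the receptor that microglia need for survival (0.166 on the log2 scale), to Ctsz Ifi30, a lysosomal thiol reductase (0.186), to Hexa the lysosomal carboxypeptidase Ctsa (0.176), and to Grn Nckap1l, a regulator of actin in blood-derived cells (0.168). To Ctss it was Apoe, the lipid carrier (0.256), to Lyz2 Fgr, a Src-family kinase of myeloid cells (0.281), and to Ctsc the chemokine Cxcl16 (0.328). Stk10 was nearest to Ctsb (0.16), Tgif1 to Lgmn (0.182) and Dennd2c to Ctsh (0.219). Among the 10 themselves, Ctsd and Ctsh were nearest to each other (0.179, closer for Ctsh than Dennd2c), as were Ctsb and Lgmn (0.297), and the widest distance was between Lyz2 and Hexa (1.62). All 14 points share libraries and groups, so these values rank genes and test nothing.

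The other genes of the lysosome were read from 10 lists, with 100 genes tested outside the 10. At day 1, 13 of the 100 were higher and 5 lower than sham, near the 11.2% and 7.93% of all genes tested. At day 14, 19 were higher and 0 lower, against 4.07% and 0.365% of all genes. From TBI day 1 to TBI day 14, 42 were higher and 11 lower, against 17.6% and 21.9% of all genes. The sham rats are not part of that difference, so it includes any change with day alone. The injury effect itself was higher at day 14 than at day 1 for 3 of the 100 and lower for 1, against 1.44% and 2.24% of all genes. The median of the 100 stood at 0.00 (day 1) and 0.10 (day 14) on the log2 scale, and 82 and 81 of them did not pass.

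Among 6 other cathepsins tested, 1 passed at each day. Ctsl1, a cysteine endopeptidase, rose from 110.7 to 152.5 CPM in sham day 1 to 206 to 233.1 CPM in TBI day 1 (log2 fold change 0.71 ± 0.17, adjusted p = 0.0116), and Ctse, an aspartic protease of endosomes, rose at day 14 (1.85 ± 0.35, adjusted p = 0.00483). Of 16 other glycosidases, 2 rose at day 1 and 4 at day 14. Gusb, the beta-glucuronidase, passed at both days, at 0.80 ± 0.24 (adjusted p = 0.0308) and 1.08 ± 0.19 (adjusted p = 0.00275). Hyal2, a hyaluronidase, rose at day 1 (0.83 ± 0.23, adjusted p = 0.0231) and Fuca1, the fucosidase, passed at day 14 (0.92 ± 0.20, adjusted p = 0.0122).

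Of 18 lipases, phosphatases, nucleases and peptidases, 2 rose and 1 fell at day 1, and 6 rose at day 14. Ifi30 had the largest rise at both days, at 2.41 ± 0.25 (adjusted p = 1.96e-05) and 2.22 ± 0.19 (adjusted p = 9.1e-06). Dnase2, which digests engulfed DNA, rose at day 1 (0.96 ± 0.31, adjusted p = 0.0433), Rnaset2, a ribonuclease, rose at day 14 (2.14 ± 0.29, adjusted p = 0.000265), and Ppt1, a thioesterase, fell by 0.55 at day 1 (SE 0.17, adjusted p = 0.0333). Of 3 sulfatases, Galns rose at both days (0.86, adjusted p = 0.0413, and 0.87, adjusted p = 0.031), while Arsa (-0.04 and -0.01) and Arsb (-0.53 and 0.31) did not pass. Of the activator proteins, Gm2a, which presents GM2 ganglioside to the enzyme containing Hexa, passed at day 14 (0.59 ± 0.14, adjusted p = 0.0266) and not at day 1 (0.46, adjusted p = 0.0849), and Psap was at -0.33 and 0.19 without passing.

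Of 20 lysosomal membrane proteins, 4 rose at each day. Cd68, a glycoprotein of macrophage lysosomes, stood at 2.77 to 5.12 CPM in sham day 1, 30.2 to 80.8 CPM in TBI day 1, 1.73 to 3.73 CPM in sham day 14 and 63.3 to 150.2 CPM in TBI day 14, log2 fold changes of 3.85 ± 0.50 (adjusted p = 0.000132) and 4.93 ± 0.39 (adjusted p = 7.2e-06). Slc11a1, a metal transporter of phagocyte lysosomes, rose at day 1 (2.49 ± 0.42, adjusted p = 0.00104), and Laptm5, a lysosomal protein of blood-derived cells, at day 14 (1.86 ± 0.21, adjusted p = 6.08e-05). None of the 18 subunits of the proton pump that acidifies the lysosome (the V-ATPase) passed in edgeR at either day. At an unadjusted p under 0.05, 3 were lower at day 1 and 0 differed at day 14, limma-voom called 0 at both days, and DESeq2 called 1 lower at day 1 and 0 at day 14.

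Of 9 genes that sort enzymes to the lysosome, 3 fell at day 1, among them Sorl1, a sorting receptor (by 1.07, SE 0.23, adjusted p = 0.00607), and Sort1, sortilin, a receptor that takes up progranulin (by 0.69, SE 0.20, adjusted p = 0.0247). At day 14 the count was 0 in edgeR, at an unadjusted p under 0.05, by limma-voom and by DESeq2. Of 4 inhibitors of cysteine proteases tested, Cstb rose at day 1 (0.89 ± 0.19, adjusted p = 0.00462), Cst6 fell by 1.22 (SE 0.29, adjusted p = 0.01), and Cst3, cystatin C, passed at day 14 (0.97 ± 0.26, adjusted p = 0.0487) with -0.43 at day 1 (adjusted p = 0.348). Cst7, cystatin F, an inhibitor of Ctsc, passed at day 1 (adjusted p = 0.00277) with 38 to 119 reads in the TBI day 1 libraries and 0 to 3 in each of the other 10. Of the 4 MiT/TFE factors, Tfec passed at day 1 (adjusted p = 0.00254) and day 14 (adjusted p = 0.0251), with 28 to 50 reads in TBI day 1, 4 to 12 in TBI day 14 and 0 to 4 in the sham libraries. Tfeb (0.37 and 0.44), Tfe3 (0.17 and 0.25) and Mitf (0.30 and 0.26) did not pass at either day.

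**Figure D4:**
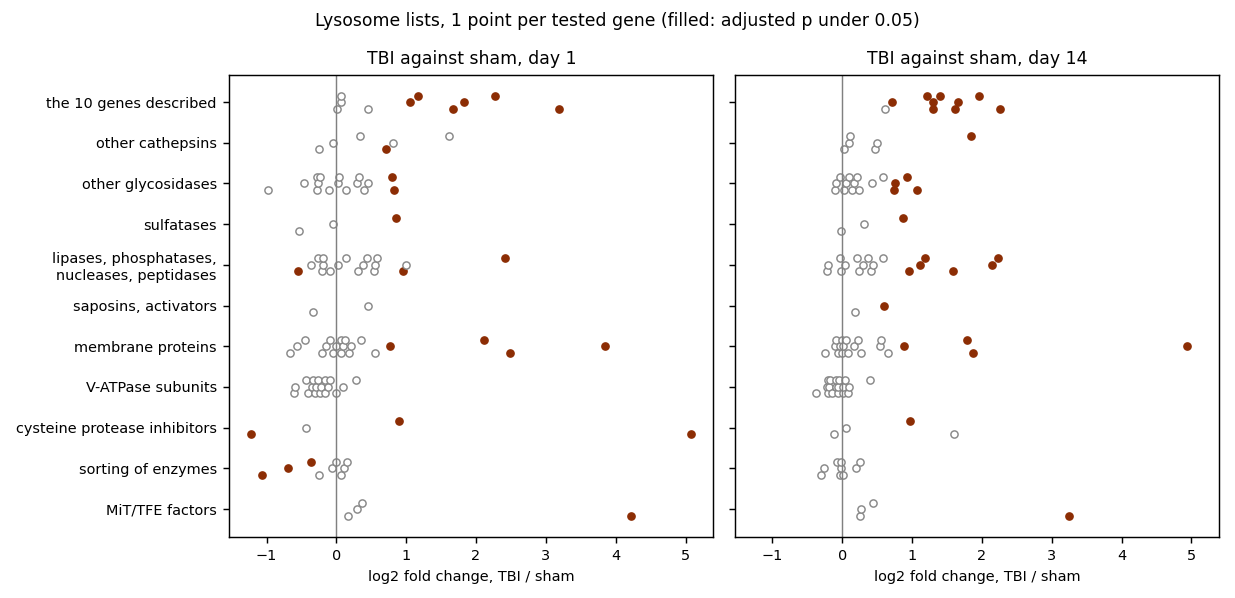
Log2 fold change of TBI over sham (x axis) at day 1 (left) and day 14 (right) for each tested gene of the 10 genes described and of the 10 lysosome lists (rows). Filled points passed the test at an adjusted p under 0.05. Most points of the V-ATPase and sorting rows lie near or below 0, and the called points of the 10 genes all lie above 0.

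Levels of cell type markers were read beside those of the 10 genes. Of 19 microglia and macrophage markers tested, 10 were higher and 2 lower at day 1, and 17 were higher and 0 lower at day 14. This list shares genes with the lysosome lists, Cd68 and Laptm5 among them. Its summed level was 574.9 to 959.7 CPM in sham day 1, 1336 to 1799 CPM in TBI day 1, 690.5 to 865.2 CPM in sham day 14 and 1679 to 2909 CPM in TBI day 14. Within that list the 2 that fell at day 1 were P2ry12 (-0.88, adjusted p = 0.019) and Tmem119 (-1.90, adjusted p = 0.00299), genes of resting microglia, named after their values were seen. For comparison, the summed level of the 10 genes was 1613 to 2412, 3490 to 4731, 1814 to 2441 and 3611 to 5943 CPM in the same order of groups.

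Of 10 markers of blood monocytes and border macrophages, 7 were higher at day 1 and 1 at day 14, with a summed level of 125.1 to 182.9 CPM in sham day 1, 544.8 to 862.9 CPM in TBI day 1, 141.6 to 180.2 CPM in sham day 14 and 102 to 179.4 CPM in TBI day 14. Of 8 neutrophil markers tested, 5 were higher at day 1 and 1 at day 14, with a summed level over the 14 listed of 9.13 to 13.9 CPM in sham day 1, 48.0 to 102.7 CPM in TBI day 1, 9.90 to 13.3 CPM in sham day 14 and 18.4 to 32.3 CPM in TBI day 14. In every sham library, 6 of the 14 neutrophil markers (Elane, Ctsg, Cxcr2, Mmp8, Ltf and Np4) had 3 reads or fewer. Lyz2, Ctsc and Ctsb were called lower at TBI day 14 than at TBI day 1, and the summed levels of these 2 lists were also lower there. This was not particular to these 2 lists. By the group median, the summed astrocyte and endothelial and mural markers were lower there too. The summed microglia and macrophage, neuron, oligodendrocyte and choroid plexus markers were higher. The injury effects of the genes at day 14 minus day 1 were -1.53 for Lyz2, 0.12 for Ctsc and -0.34 for Ctsb, and none of these passed in edgeR. In the sham rats Ctsc was higher at day 1 than at day 14 by a log2 difference of 1.20 (edgeR adjusted p = 0.06). The part that cells of the marker lists have in the changes of the 10 genes was not tested. Leaving out the 3 libraries with high choroid plexus markers kept 1 rat in sham day 1, so the day 1 count of that fit is not read here. At day 14, 9 of the 10 genes passed in it, and its share over all genes is not given here.

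**Figure D5:**
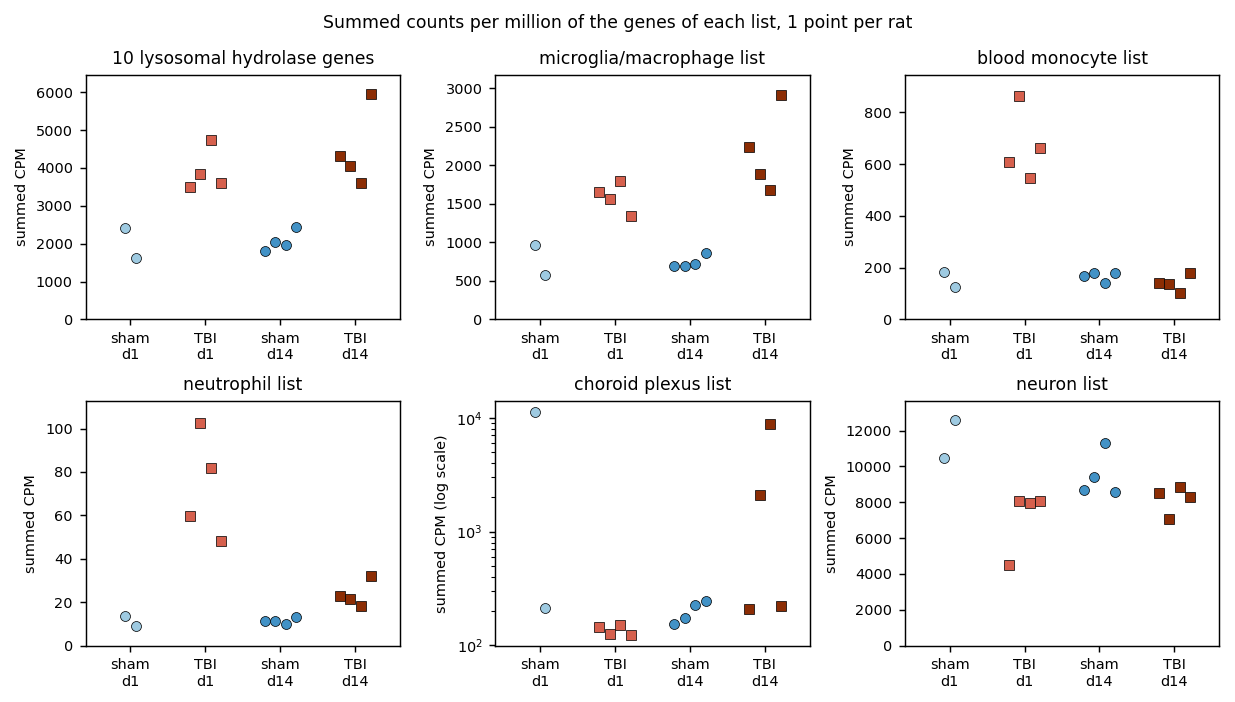
Summed CPM (y axis, log scale for the choroid plexus list only) of the 10 genes and of 5 marker lists in each rat, by group (x axis). Each point is 1 rat. The microglia list is raised in both TBI groups, the monocyte and neutrophil lists mainly at TBI day 1, and 3 rats stand apart on the choroid plexus list.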

How the data were processed

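Polyadenylated RNA of 14 rats was sequenced by the authors as stranded single-end 50 bp reads, aligned to rn5 with STAR 2.4.2a and counted on UCSC genes with featureCounts 1.5.0. The deposited counts are whole numbers without normalization and were used as deposited. Samples were grouped by their labels. The H3K4me3 peak lists of the series were not used here. Counts were tested with edgeR 4.0.16 in R 4.3.3 (TMM factors, filterByExpr by group, 1 mean per group over all 14 libraries, quasi-likelihood test, two-sided, Benjamini-Hochberg over 12875 genes, threshold 0.05). The SE is the log2 fold change divided by the square root of F. p-values measure the spread between rats. limma-voom, the study's method, is an alternative, as are DESeq2 1.42.0, other scaling and filters, a replicate block, and libraries left out. The 10 genes, the 10 lysosome lists and the 8 cell type lists were chosen with earlier results of these data known, from general knowledge. List genes named were those with the largest called rise or fall (up to 2 per list, day and direction) and lists of 6 or fewer in full. The procedure was tested on simulated data in which 200 genes were changed 4-fold in TBI day 1. Against sham day 1, edgeR recovered 177 with 7 false calls, limma-voom 176 with 9 and DESeq2 185 with 31. Smaller changes and the other comparisons were not simulated. Promoters are RefSeq's, GRCr8.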

Additional observations from a re-analysis of the deposited data

Results flagged for a closer look

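In TBI day 14, replicate 4 lay far from its group for Ctsd, at a log2 CPM of 10.70, by the gap to the nearest rat relative to the range of the 4 rats. This was 1 sample in 30 groups examined, and chance gives about 1 in 20. The same rat had the highest level of its group for 10 of the 10 genes and the highest summed microglia and macrophage markers (2909 CPM).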

How the results depend on the processing

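The counts at day 1 (6 of 10), at day 14 (9), between the injured groups (8) and for TBI day 1 against sham day 14 (6) stayed within 1.5 times under every alternative run, with 4 to 8, 9 to 10, 6 to 8 and 6 when 1 replicate was left out, and 5 to 8, 9 to 10, 7 to 8 and 6 otherwise. The count of genes whose injury effect differed between days was 0, became 3 with DESeq2 and ran from 0 to 3 with 1 replicate left out. The count between the sham groups was 0, became 1 with DESeq2 and ran from 0 to 1 with 1 replicate left out. Where sham day 1 kept a single rat, that rat was assumed to vary like the other groups. The cause of these shifts was not tested.

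The log2 values that changed sign lay near 0 or rested on sham day 1. At day 1, Ctss was at -0.0001 with DESeq2 and with median-of-ratios factors and at -0.0015 without a filter. With 1 replicate left out, Ctss ran from -0.32 to 0.42, Ctsh from -0.44 to 0.84 and Hexa from -0.31 to 0.58. Between the injured groups, Ctsz was at 0.009 with limma-voom, 0.0133 with DESeq2 and with median-of-ratios factors, 0.0054 without a filter, 0.0118 with at least 10 counts in every sample, 0.21 without the 3 libraries high in choroid plexus markers, and -0.13 to 0.18 with 1 replicate left out. For the difference between the injury effects, Ctsc was at -0.27 with limma-voom, -1.17 without those 3 libraries and -1.36 to 0.85 with 1 replicate left out, and Ctsz ran from -0.67 to 0.44. At day 14 no gene changed sign. Ctsb between the injured groups lost its call with median-of-ratios factors (-0.39), with either other filter (-0.40 and -0.40), with only the injured groups in the fit (-0.41) and without the 3 libraries (-0.23).

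Same-numbered replicates did not deviate together (18 pairs, correlations from -0.348 to 0.243, 5 over 0.1), and the main fit did not pair the rats. The deviations of the 2 sham day 1 rats mirror each other by construction, so these correlations alone cannot exclude a pairing. With a replicate block the counts were 6 at day 1, 9 at day 14, 0 for the difference, 7 between the injured groups (Ctsb at -0.42 did not pass), 0 between the sham groups and 6 for TBI day 1 against sham day 14, and Ctsz in the difference was at 0.0298.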

Other observations

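The remaining cell type lists moved as follows. Of 11 neuron markers, 0 were higher and 5 lower at day 1 and 0 passed in either direction at day 14 in edgeR. At an unadjusted p under 0.05, 10 were lower at day 1 and 1 at day 14, with 4 and 0 called by limma-voom and 9 and 0 by DESeq2. TBI day 1 replicate 1 had the lowest summed neuron markers (4512 CPM, against 7981 to 8092 CPM in the other 3 rats of its group) and was the highest rat of its group for Ctss, while replicate 3 was the highest for the other 9 genes. Of 9 astrocyte markers 2 were higher at day 1 and 1 at day 14, with summed levels of 13810 to 20280 CPM in TBI day 1 and 9530 to 13780 CPM in TBI day 14 against 5943 to 10790 CPM in sham. Of 9 oligodendrocyte markers 2 were lower at day 1 and 0 passed at day 14 (0 at an unadjusted p under 0.05, by limma-voom and by DESeq2). Of 9 endothelial and mural markers 2 were higher at day 1 and 0 passed at day 14 (1 lower at an unadjusted p under 0.05, 0 by limma-voom and 1 by DESeq2). Of 13 choroid plexus markers 11 were lower at day 1 and 1 was higher at day 14. These calls rest on few rats. The summed level of that list was 11270 CPM in sham day 1 replicate 1 and 210.4 CPM in replicate 2, against 124.1 to 151.5 CPM in TBI day 1. At day 14 it was 154.9 to 247.2 CPM in sham and 209 to 8794 CPM in TBI, where replicates 2 and 3 stood apart.

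Within groups, the 10 genes tended to share their highest rat. Sham day 1 replicate 1, sham day 14 replicate 4 and TBI day 14 replicate 4 were each the highest of their group for 10 of the 10 genes. The summed microglia and macrophage markers were also highest in these 3 rats within their groups, at 959.7, 865.2 and 2909 CPM. Whether the 2 are related was not tested.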
